A study of Mus musculus with 61 samples.

Results

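The 4 mouse genes of the myocyte enhancer factor 2 (MEF2) family, Mef2a, Mef2b, Mef2c and Mef2d, were followed through H3K27ac, SALL1, SMAD4 and p300 ChIP-seq of microglia and of sorted brain nuclei. They are 4 of the 19040 genes that the microglia H3K27ac table names as nearest to a window. Their members in that table were the windows annotated to 1 of these gene symbols, 182 of 133129, of which 61 belonged to Mef2a, 4 to Mef2b, 95 to Mef2c and 22 to Mef2d. Factor peaks and H3K27ac regions of nuclei were counted where they overlapped such a window, or the gene body with 5 kb on either side, by at least 1 bp. In mm10, Mef2a spans chr7:67231163-67376456 on the minus strand, and Mef2b spans chr8:70152761-70167488 on the plus strand. Mef2c spans chr13:83504017-83667079 and Mef2d spans chr3:88141941-88172091, both on the plus strand. Distances below are in kb from the first start site of the gene body in the direction of transcription, so negative positions lie upstream.

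The study asked how deletion of the microglial super-enhancer of Sall1, which encodes a zinc-finger transcription factor of microglia, alters their chromatin. EKO denotes mice homozygous for the CRISPR deletion of that super-enhancer, and WT denotes wild type. Per the study's text, its C57BL/6J and EKO mice were adult males, and the EKO line had been crossed to C57BL/6J. Its mice with a conditional SMAD4 knockout were younger males. Sex and age of mice of other strains are not stated here. H3K27ac was measured in 2 EKO and 2 WT libraries of microglia gated as CD11b+ CX3CR1+ with low CD45, and in 2 libraries per genotype of PU1, NeuN and Olig2 nuclei. PU1 marks microglial nuclei, NeuN neuronal nuclei and Olig2 nuclei of the oligodendrocyte lineage. SALL1 was measured in EKO, PWK, Spret and WT microglia, PWK and Spret being wild-derived strains, SMAD4 in mutant-labelled and WT microglia, and p300 in WT, each list of peaks pooling 2 libraries or, for p300, 3. The mutant SMAD4 libraries are titled as a conditional SMAD4 knockout, but described elsewhere in their labels and in the paper as Sall1 EKO, so they are called mutant-labelled here. The SALL1 libraries are labelled as microglia, while the study's text describes nuclei sorted for SALL1 and PU.1. One p300 library is labelled as microglia and the others as PU1 nuclei. Nothing in the labels states that libraries of a group came from separate animals, so p-values below measure only the spread between these libraries.

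MEF2 proteins are MADS-box transcription factors that bind A/T-rich sites as dimers and recruit p300 or, when bound by class IIa histone deacetylases, act as repressors. Calcium and MAP kinase signalling release them from the deacetylases. In the brain MEF2C is known for roles in cortical neurons and in restraining the immune response of microglia, MEF2A and MEF2D act in activity-dependent gene expression of neurons and are also expressed in myeloid cells, and MEF2B is known mainly from B lymphocytes. H3K27ac, acetylation of lysine 27 on histone H3, marks active promoters and enhancers.

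The libraries were first checked against their labels. Windows nearest to Sall1 summed to 312 and 155 normalized tags in EKO microglia, against 4117 and 2471 in WT, where 1 normalized tag is 1 tag per 10000000 mapped tags. In PU1 nuclei no H3K27ac was listed over Sall1 in EKO, against 1123 and 5249 tags in WT. All 7 microglial markers were listed in every PU1 library, with sums of 7615 to 43756 tags, against 229 to 677 in NeuN and Olig2 nuclei. The 8 neuronal markers summed to at least 23172 tags in each NeuN library and to at most 80.8 in any PU1 library. PU1 WT library 1 stood apart from the other nuclei libraries, with 11149 listed regions that held 8.04% of its tags, where the other 11 libraries had 37.8% to 62.6% in listed regions. By tags recovered from the values, the microglia libraries held 9963453 to 24357798 tags in all. EKO library 1 stood apart among them. Its tested windows had a median of 6.41 on the log2 scale, against 4.95 in EKO library 2 and 5.57 and 5.20 in WT. Of its windows with low nonzero counts, 63.8% held a multiple of 3 tags, against 30.9% to 39.7% in the other libraries. Its windows, some of which overlap, summed to 97.2% of its depth, against 33.2% to 54.9% in the others. Markers of other cells also differed between genotypes. The 8 border macrophage markers had 3360 and 1244 tags in EKO and 687 and 507 in WT microglia windows (23 of 37 tested windows called higher) and 6922 and 4852 in EKO and 65.1 and 1055 in WT PU1 nuclei. Of the tested microglia windows of astrocyte and oligodendrocyte lineage markers, 14 of 19 and 9 of 25 were called lower in EKO and none higher, with astrocyte sums of 1538 and 487 in EKO and 2166 and 1365 in WT. The 7 microglial markers had 22606 and 7353 tags in EKO and 16260.5 and 10874 in WT (6 of 124 windows lower, none higher). The part of other cells in the results below was not tested. In bulk ChIP-seq, fewer cells of a type and less acetylation per cell cannot be told apart.

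Several sequences carry the findings that follow. The first is the Mef2a element at −85.6 kb, chr7:67461934-67462149, where peaks of SALL1, SMAD4 and p300 coincided. It is followed by the central 200 bases of the Mef2a SMAD4 peaks at −81.6 and −66.1 kb (chr7:67457986-67458185 and chr7:67442414-67442613), which the lists used here hold for mutant-labelled but not for WT microglia. The Mef2c elements at +68.2 kb (chr13:83572079-83572292) and +105.4 kb (chr13:83609266-83609537) held the best ranked SALL1 peaks of that gene. All are mm10 sequence of the plus strand read from RefSeq's GRCm38.p6 genome, and capitals mark a GGAAGT core of ETS sites such as those of PU.1 or a GTCTG half-site of SMADs, in either orientation.
Mef2a −85.6 kb: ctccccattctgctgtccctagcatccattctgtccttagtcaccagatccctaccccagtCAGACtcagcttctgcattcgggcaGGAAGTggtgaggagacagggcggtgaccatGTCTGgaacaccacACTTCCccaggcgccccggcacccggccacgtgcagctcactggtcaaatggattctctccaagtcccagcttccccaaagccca
Mef2a −81.6 kb: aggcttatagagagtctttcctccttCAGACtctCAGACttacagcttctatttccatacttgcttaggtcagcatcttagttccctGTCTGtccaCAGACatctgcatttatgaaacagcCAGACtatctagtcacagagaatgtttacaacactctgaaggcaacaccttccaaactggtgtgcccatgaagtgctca
Mef2a −66.1 kb: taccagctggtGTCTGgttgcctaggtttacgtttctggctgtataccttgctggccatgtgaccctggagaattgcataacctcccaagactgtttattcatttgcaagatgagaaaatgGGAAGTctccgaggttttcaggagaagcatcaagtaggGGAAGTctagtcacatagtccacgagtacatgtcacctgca
Mef2c +68.2 kb: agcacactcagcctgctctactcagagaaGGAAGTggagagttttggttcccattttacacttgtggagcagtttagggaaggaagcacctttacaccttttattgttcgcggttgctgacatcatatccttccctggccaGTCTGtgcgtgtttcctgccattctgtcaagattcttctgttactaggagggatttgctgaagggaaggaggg
Mef2c +105.4 kb: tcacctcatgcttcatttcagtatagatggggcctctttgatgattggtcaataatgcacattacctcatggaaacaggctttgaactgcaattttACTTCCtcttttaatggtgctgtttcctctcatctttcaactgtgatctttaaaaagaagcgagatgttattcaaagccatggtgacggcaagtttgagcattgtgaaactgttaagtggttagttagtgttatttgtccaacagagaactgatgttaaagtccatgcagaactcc

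A MEF2 consensus and the A/T-rich word AATATT, bound by SALL proteins, were searched as well on both strands, and neither occurred in these 5 sequences. AATATT is stricter than the core AATA that the paper cites for SALL proteins within longer A/T-rich sequence. That shorter core was not counted, and on either strand it occurs in each of these sequences except Mef2a −85.6 kb. The 4 words searched were chosen with the sequences in view, and a GGAAGT followed directly by CTG counts as a hit of both words. In the central 200 bases of 15396 SALL1 peaks of WT microglia, GGAAGT occurred in 44.4%, GTCTG in 38.2%, AATATT in 11.04% and the MEF2 consensus in 7.54%. In the central 200 bases of 132879 windows the shares were 35.0%, 41.7%, 2.49% and 1.96%. The Mef2a element at −85.6 kb held 2 hits of each of GGAAGT and GTCTG, and that at −81.6 kb held 5 of GTCTG and none of GGAAGT.

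Among sorted nuclei, the 4 genes had distinct H3K27ac profiles. Mef2c was acetylated in PU1 and NeuN nuclei and nearly unmarked in Olig2 nuclei, Mef2a and Mef2d were marked in all kinds of nuclei, and Mef2b was nearly unmarked throughout. Gene levels are the normalized tags of all listed regions over the gene body with 5 kb on either side, and a region that a library does not list counts as 0. Per kb, the PU1 libraries averaged 29.0 ± 16.6 tags at Mef2d, 21.7 ± 13.1 at Mef2c, 10.1 ± 5.59 at Mef2a and 0.0551 ± 0.110 at Mef2b (SD, n = 4). The order in NeuN nuclei was the same, with 52.4 ± 2.09 at Mef2d, 15.7 ± 2.47 at Mef2c, 3.19 ± 0.232 at Mef2a and 0.553 ± 0.194 tags per kb at Mef2b, whereas in Olig2 nuclei Mef2c came last with 0.127 ± 0.0270.

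**Figure D1:**
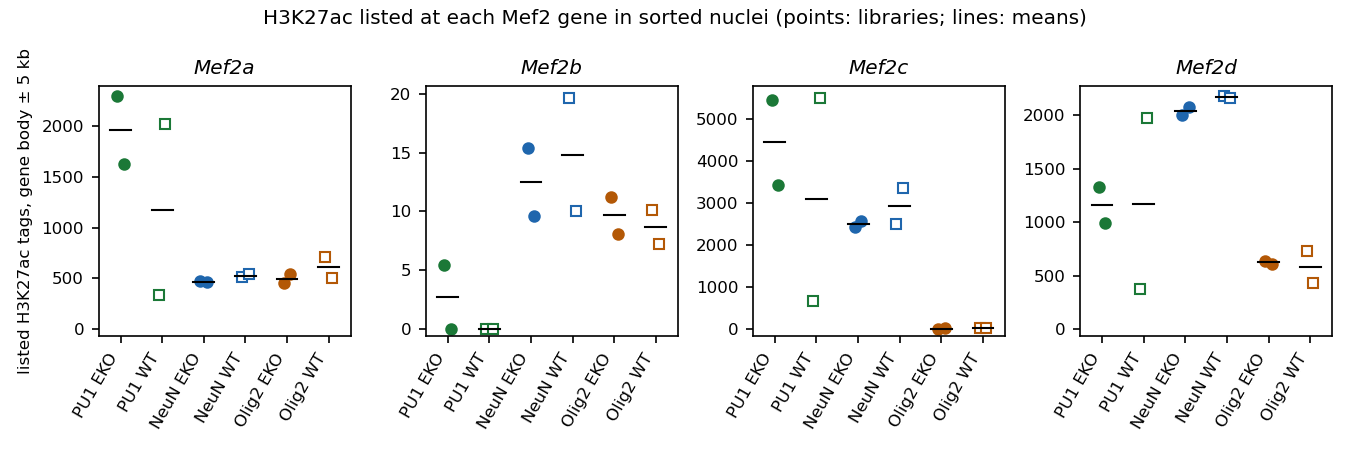
Listed H3K27ac tags over each Mef2 gene body with 5 kb flanks (vertical axis, 1 panel per gene with its own scale) in PU1, NeuN and Olig2 nuclei of EKO (filled circles) and WT (open squares) mice. Points are libraries and lines are means of 2. Mef2c holds 15.0 to 25.0 tags in Olig2 nuclei against 2420 to 3344 in NeuN nuclei, and the low open PU1 point in the Mef2a, Mef2c and Mef2d panels is WT library 1.

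Mef2c, the family member best known from both microglia and cortical neurons, had 5447 and 3419 tags in EKO and 682 and 5498 in WT PU1 nuclei. NeuN nuclei held 2420 and 2579 tags in EKO and 2503 and 3344 in WT. Olig2 nuclei held 15.0 and 24.5 tags in EKO and 25.0 and 23.1 in WT. Every PU1 and NeuN library thus lay far above every Olig2 library, while PU1 and NeuN overlapped. The PU1 minus Olig2 difference over both genotypes was 7.01 ± 0.61 on the log2(tags + 1) scale (SE; limma, Benjamini-Hochberg adjusted p = 4.1e-05) and the NeuN minus Olig2 difference was 6.90 ± 0.61 (adjusted p = 3.9e-05). Of all 29260 genes tested, 14.7% were called higher and 27.5% lower in PU1 than in Olig2 nuclei, and 33.1% higher and 14.5% lower in NeuN than in Olig2 nuclei, where a call needs an adjusted p below 0.05 and a fold above 2. Between PU1 and NeuN nuclei the Mef2c difference was 0.11 ± 0.61 (limma adjusted p = 0.93), and the sign depended on the weak library, with 0.86 without PU1 WT library 1 and −0.65 without PU1 WT library 2.

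Mef2a had 2294 and 1625 tags in EKO and 333.5 and 2021 in WT PU1 nuclei. NeuN nuclei held 473 and 461 tags in EKO and 510.1 and 539.5 in WT, and Olig2 nuclei held 455 and 542 in EKO and 708 and 509 in WT. In 3 of 4 PU1 libraries Mef2a exceeded every other library more than 2-fold, but PU1 WT library 1 lay below all of them. The PU1 minus NeuN difference was 1.35 ± 0.53 (limma adjusted p = 0.060) and became 2.00 without that library (adjusted p = 6.3e-05) and 2.02 after each library was scaled to the same sum of listed tags (adjusted p = 7.3e-07). PU1 minus Olig2 was 1.21 ± 0.53 (limma adjusted p = 0.11), or 1.85 without that library (adjusted p = 1.1e-04). NeuN and Olig2 nuclei differed by −0.14 ± 0.53 (limma adjusted p = 0.90).

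Mef2d had 1325 and 993 tags in EKO and 374 and 1970 in WT PU1 nuclei. NeuN nuclei held 1998 and 2073 tags in EKO and 2180 and 2161 in WT, and Olig2 nuclei held 639 and 613 in EKO and 734 and 431 in WT. The NeuN libraries lay above all others and spread little, and the PU1 libraries lay above those of Olig2 except PU1 WT library 1, which lay below them. NeuN exceeded Olig2 by 1.82 ± 0.49 (limma adjusted p = 0.017), a call that was lost when any 1 of 6 NeuN or Olig2 libraries was left out (adjusted p = 0.051 to 0.062). PU1 minus NeuN was −1.08 ± 0.49 (limma adjusted p = 0.097), called at −1.68 without PU1 WT library 2, and PU1 minus Olig2 was 0.74 ± 0.49 (adjusted p = 0.29), called at 1.34 without PU1 WT library 1.

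Mef2b, the B-cell member, had 5.45 and 0 tags in EKO and 0 and 0 in WT PU1 nuclei, 9.60 to 19.7 in those of NeuN and 7.22 to 11.3 in those of Olig2. It was the only family member called lower in PU1 than in NeuN nuclei (−3.15 ± 0.57, limma adjusted p = 0.0021) and than in Olig2 nuclei (−2.66 ± 0.57, adjusted p = 0.0067), where 44.8% and 27.5% of all genes were called lower. The tags came from a region at +20.6 kb that starts in the 3′ flank and reaches beyond it, except for the 10.0 tags of NeuN WT library 2, which lay inside the gene at +5.8 kb. Both calls were lost when the flanks were left out (limma adjusted p = 0.36 and 1). No Mef2 gene was called higher in PU1 than in NeuN nuclei, against 12.3% of all genes.

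Within each kind of nuclei, no Mef2 gene was called between EKO and WT by limma, and 0 of 4 had an unadjusted p below 0.05. The share of all genes called was 0.352% lower and 2.58% higher in PU1, 0.537% and 0.841% in NeuN and 0.338% and 0.277% in Olig2 nuclei. In PU1 nuclei the EKO minus WT differences were 1.23 ± 0.74 at Mef2a, 1.16 ± 0.87 at Mef2c and 0.42 ± 0.70 at Mef2d, and they depended on the weak WT library. Without PU1 WT library 2, which leaves the weak library alone for WT, all 3 were called higher in EKO (2.53, 2.66 and 1.61), as were 41.4% of all genes, whose median difference was then 1.80, whereas without PU1 WT library 1 they were −0.07, −0.35 and −0.78. Differences of the EKO minus WT effect between kinds of nuclei did not pass the test at any Mef2 gene (12 limma contrasts, lowest adjusted p = 0.76).

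The acetylated regions behind these levels were then compared one by one. Merging the 12 lists gave 89 regions at the Mef2 loci, 34 at Mef2a, 2 at Mef2b, 44 at Mef2c and 9 at Mef2d, of which 48 were listed by at least 2 libraries and tested among 87981. Between PU1 and NeuN nuclei, 9 Mef2 regions were called higher and 12 lower, where 11.7% and 45.0% of all regions were. By gene, 7 regions were higher and 2 lower at Mef2a, 2 higher and 8 lower at Mef2c, and none higher and 2 lower at Mef2d. Regions listed by 1 kind of nuclei alone are among these calls, and their direction followed from the filter of 2 libraries. Against Olig2 nuclei, 15 Mef2 regions were higher and 1 lower in PU1 nuclei (12% and 22.2% of all regions), and 24 were higher and 3 lower in NeuN nuclei (40.6% and 17.8%). Broad regions merge into 1 unit that PU1 and NeuN share, so 1 kb bins were added after the data had been seen. Of 246 such bins, 49 were higher and 58 lower in PU1 than in NeuN nuclei (13.5% and 38.4% of all bins), and they divided as 34 and 4 at Mef2a, 14 and 34 at Mef2c and 1 and 20 at Mef2d. Against Olig2 nuclei, 89 bins were higher and 12 lower in PU1 nuclei (13.3% and 24.5% of all bins), and 112 were higher and 7 lower in NeuN nuclei (34.7% and 21.8%).

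Between genotypes, 1 Mef2 region was called higher in EKO and none lower in PU1 nuclei (2.67% and 0.234% of all regions). That region was listed by the 2 PU1 EKO libraries alone, so its direction followed from the filter. None of the 48 was called in NeuN nuclei (2.93% higher and 2.24% lower) or in Olig2 nuclei (1.02% and 0.908%), where 3 and 1 had an unadjusted limma p below 0.05. In bins, 5 were higher in EKO and none lower in PU1 nuclei (2.99% and 0.183% of all bins), 3 higher and 4 lower in NeuN nuclei (2.71% and 1.96%), and none in Olig2 nuclei (1.13% and 0.736%).

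The strongest Mef2a region of PU1 nuclei lay far upstream of the gene. It spanned 32654 bp of intergenic sequence at chr7:67435288-67467941, centred at −75.2 kb, and held 8151 and 6146 tags in EKO and 1086 and 6192 in WT PU1 nuclei. NeuN nuclei held 362 and 314 tags there in EKO and 260 and 292 in WT, and the Olig2 libraries held at most 26.8. All PU1 libraries, the weak one included, exceeded all NeuN libraries, and the difference was 3.81 on the log2 scale (limma adjusted p = 0.017). Within the single lists, its top part ranked 24 of 25990 and 21 of 26029 regions in EKO and 45 of 11149 and 83 of 36057 in WT PU1 nuclei. In contrast, the Mef2a promoter region was listed in all 12 libraries, with 1873 and 1329.9 tags in EKO and 334 and 1647 in WT PU1 nuclei, 371 to 445 in those of NeuN and 290.1 to 439 in those of Olig2. It passed the test against Olig2 nuclei (limma adjusted p = 0.042) and missed it against NeuN nuclei (1.41 ± 0.52, adjusted p = 0.052).

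A further Mef2a domain at −47.2 kb had 713 and 542 tags in EKO and 166 and 1097 in WT PU1 nuclei, 18.0 to 82.9 in NeuN nuclei and 0 in Olig2 nuclei (3.38 ± 0.68 against NeuN, limma adjusted p = 0.0040). Other Mef2a regions were listed by only some kinds of nuclei. The region at −4.3 kb had 335 and 226 tags in EKO and 0 and 252 in WT PU1 nuclei, and the region at −54.4 kb had 149 and 123 in EKO and 0 and 50 in WT. No NeuN or Olig2 library listed either of them, and both were called against both kinds (limma adjusted p = 0.011 and 0.0059 against NeuN). They entered the test through PU1 nuclei alone, so the direction of these calls followed from the filter. A region in the 3′ part of the gene at +132.9 kb had 119.5 and 68.3 tags in EKO and 0 and 65.9 in WT PU1 nuclei and 68.9 to 116.9 in Olig2 nuclei, and was listed at 0 in NeuN nuclei. The regions at +145.7 and +148.5 kb were the ones called lower in PU1 than in NeuN nuclei, with 14.4 to 41.5 and 9.60 to 28.9 tags in the NeuN libraries. That at +148.5 kb was listed by NeuN libraries alone, so its direction also followed from the filter. The call at +145.7 kb was lost without any 1 of 6 PU1 or NeuN libraries (limma adjusted p = 0.052 to 0.081).

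**Figure D2:**
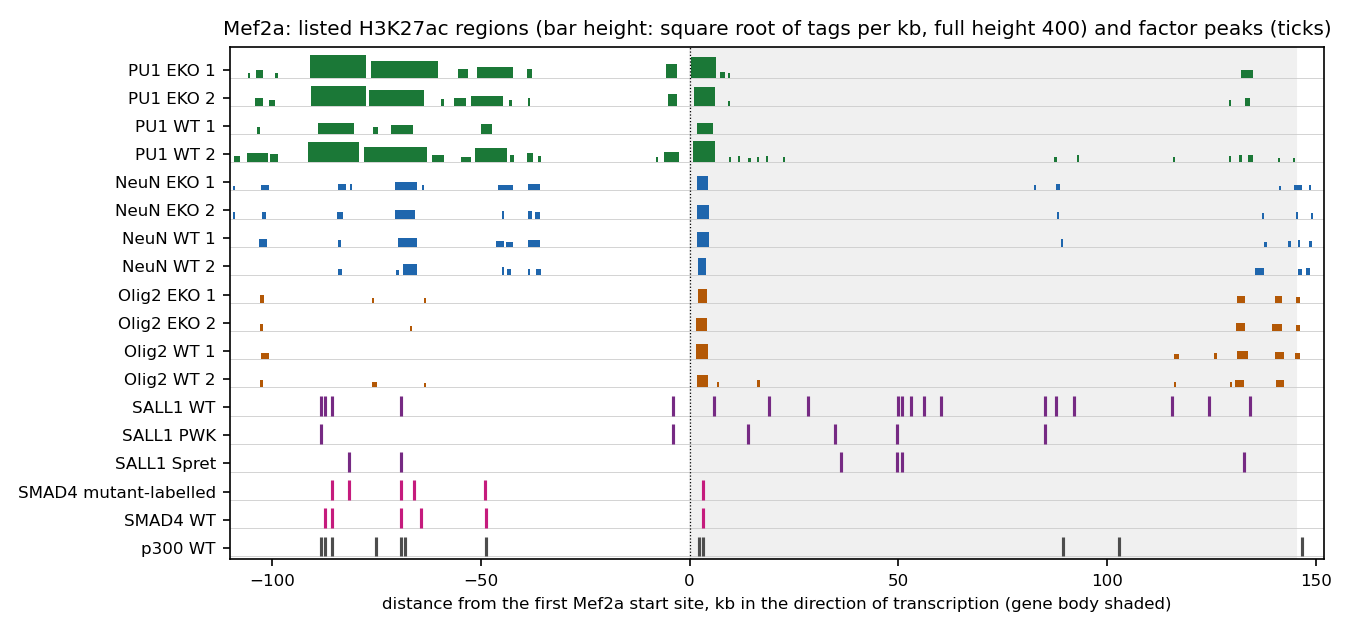
H3K27ac regions listed at Mef2a in the 12 nuclei libraries (bars; height is the square root of tags per kb, on 1 scale for all rows) and reproducible factor peaks (ticks), along the distance from the first start site in kb in the direction of transcription, with the gene body shaded. The PU1 rows carry the broad block centred at −75.2 kb with SALL1, SMAD4 and p300 ticks over it, and the Olig2 rows are nearly empty there.

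At Mef2c, PU1 and NeuN nuclei shared acetylated regions inside the gene. The gene body has 3 start sites in the RefSeq promoter table, and their promoters, 250 bases before to 50 after each start with hits in capitals as above, are shown because the acetylated regions fell on them unequally. They lie at chr13:83503784-83504083, chr13:83523406-83523705 and chr13:83573357-83573656 on the plus strand.
Mef2c upstream promoter: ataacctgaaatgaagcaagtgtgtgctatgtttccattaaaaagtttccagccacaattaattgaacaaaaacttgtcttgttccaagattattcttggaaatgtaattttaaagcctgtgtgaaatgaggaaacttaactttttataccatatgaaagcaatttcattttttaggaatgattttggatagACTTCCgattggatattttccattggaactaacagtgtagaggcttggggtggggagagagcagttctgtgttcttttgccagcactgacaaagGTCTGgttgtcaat
Mef2c middle promoter: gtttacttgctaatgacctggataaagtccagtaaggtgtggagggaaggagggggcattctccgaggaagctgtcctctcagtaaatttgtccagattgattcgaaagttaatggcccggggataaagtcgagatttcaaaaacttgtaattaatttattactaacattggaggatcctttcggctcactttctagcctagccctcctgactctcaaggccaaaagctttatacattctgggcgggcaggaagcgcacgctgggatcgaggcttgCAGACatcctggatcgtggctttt
Mef2c internal promoter: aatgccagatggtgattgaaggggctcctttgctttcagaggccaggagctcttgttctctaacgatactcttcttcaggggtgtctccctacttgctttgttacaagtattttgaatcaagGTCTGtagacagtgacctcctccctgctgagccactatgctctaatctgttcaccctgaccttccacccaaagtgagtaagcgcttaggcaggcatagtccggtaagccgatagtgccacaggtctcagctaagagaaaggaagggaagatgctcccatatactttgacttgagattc

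These promoters held 1, 10 and 4 CG dinucleotides, against a median of 7 over 32851 promoters of 300 bases. Among all those promoters GGAAGT occurred in 23.8%, GTCTG in 49.6%, AATATT in 6.81% and the MEF2 consensus in 3.19%. Neither AATATT nor the MEF2 consensus occurred in the 3 Mef2c promoters.

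The upstream promoter had 0 tags in every PU1 library, 0 and 40.8 in EKO and 23.3 and 56.5 in WT NeuN nuclei, and 0 in every Olig2 library (limma adjusted p = 0.014 for PU1 against NeuN). NeuN libraries alone listed it, so the direction of this call followed from the filter of 2 libraries. The middle promoter lay in a 16853 bp region centred at +20.7 kb with 925 and 672 tags in EKO and 147.5 and 953 in WT PU1 nuclei, and 857 and 899 in EKO and 949 and 1054 in WT NeuN nuclei. That region held the strongest Mef2c entry of every NeuN list, and PU1 and NeuN overlapped there (−0.78, limma adjusted p = 0.45). The internal promoter lay in a 29196 bp region centred at +74.9 kb, with 2507 and 1436 tags in EKO and 306 and 2666 in WT PU1 nuclei, and 420 and 473 in EKO and 459 and 607 in WT NeuN nuclei. It held the strongest Mef2c entry of every PU1 list. The difference of 1.43 ± 0.63 did not pass the test (limma adjusted p = 0.097), and without PU1 WT library 1 it was 2.21 (adjusted p = 1.9e-04).

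Further into the gene, the region centred at +106.3 kb had 1420 and 923 tags in EKO and 172 and 1129.9 in WT PU1 nuclei, and 236 and 203 in EKO and 177 and 269.8 in WT NeuN nuclei. It was called higher in PU1 nuclei (1.70 ± 0.55, limma adjusted p = 0.032), a call lost when any 1 of 10 libraries was left out (adjusted p = 0.056 to 0.097). In the 3′ part of the gene, the region centred at +151.4 kb had 451 and 260 tags in EKO and 56.9 and 469 in WT PU1 nuclei, against 489 to 745 in NeuN nuclei (−1.36 ± 0.64, limma adjusted p = 0.12), so that no PU1 library reached the NeuN range. Of the region at +163.0 kb and the intergenic regions at −371.3 and −392.5 kb, PU1 nuclei listed only the last, in EKO library 1 with 28.5 tags, whereas the 4 NeuN libraries had 43.6 to 97.9, 31.2 to 102.9 and 56.7 to 243.4 tags in them. All 3 were called lower in PU1 nuclei (limma adjusted p = 1.3e-07, 8.7e-07 and 0.0022). They entered the test through NeuN nuclei, so the direction of these calls followed from the filter. Unlisted regions count as 0 without spread, so such p-values can be too small. The small intergenic region at −175.3 kb was the region called between genotypes (limma adjusted p = 2.5e-05). It entered the test only through the 2 PU1 EKO libraries, so the direction of its call followed from the filter. It had 13.8 and 15.8 tags in EKO and was unlisted, so 0, in both WT PU1 libraries. The lowest values that these libraries list were 9.19 and 8.53 tags in EKO and 9.66 and 5.83 in WT. The EKO values thus lay near the floor of their lists, and WT library 1 was the weak one. Olig2 nuclei listed a single element that recurred in all 4 libraries, between +154.5 and +154.8 kb with 15.0 to 25.0 tags.

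**Figure D3:**
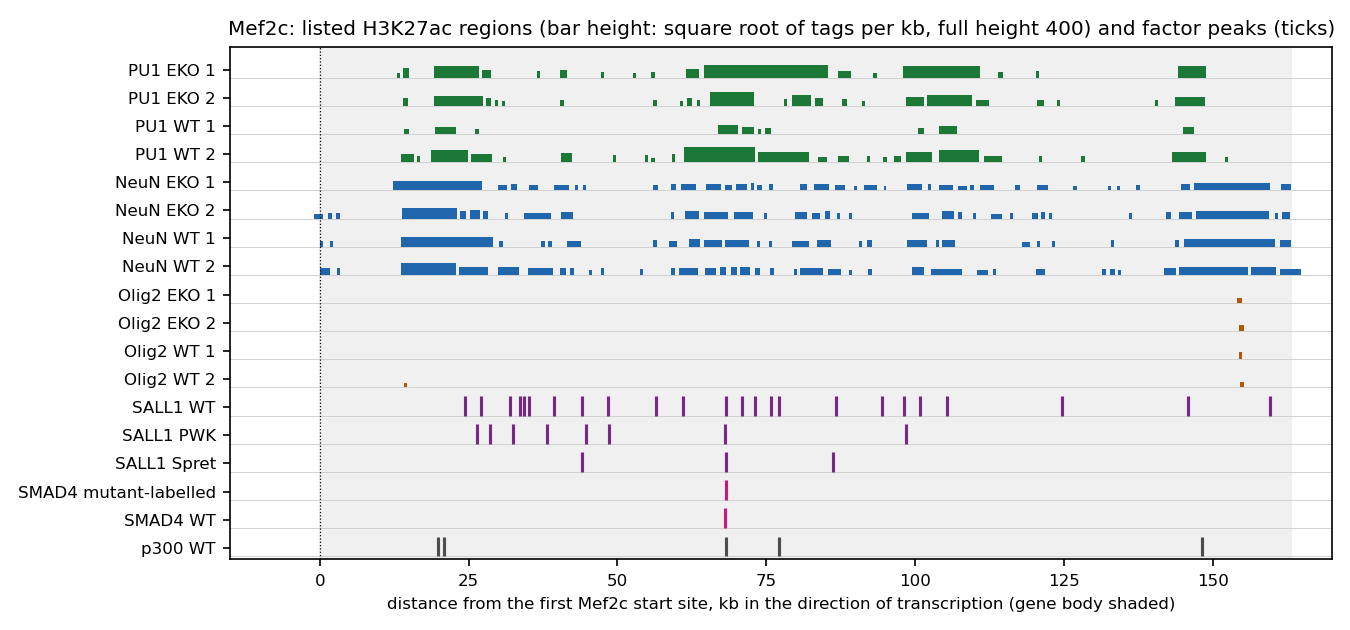
H3K27ac regions listed at Mef2c in the 12 nuclei libraries (bars; height is the square root of tags per kb, on 1 scale for all rows) and reproducible factor peaks (ticks), along the distance from the first start site in kb, with the gene body shaded. PU1 bars are tallest in the regions centred at +74.9 and +106.3 kb and NeuN bars in those at +20.7 and +151.4 kb, and the site at +68.2 kb has a tick in every factor row shown.

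At Mef2d, the promoter region of 17558 bp held 1250.3 and 948 tags in EKO and 323 and 1532 in WT PU1 nuclei, and 1744 and 1848 in EKO and 1888 and 1911 in WT NeuN nuclei. Olig2 nuclei held 629 and 613 tags in EKO and 711 and 431 in WT. No PU1 library reached the lowest NeuN library, but the difference of −1.08 did not pass the test (limma adjusted p = 0.14). Regions at +20.9 and +27.8 kb, in the 3′ part of the gene, were listed once in PU1 nuclei, with 9.17 tags in WT library 2, and had 81.6 to 99.1 and 93.8 to 140.0 tags in NeuN nuclei. Both were called lower in PU1 nuclei (limma adjusted p = 1.3e-04 and 2.8e-04). They entered the test through NeuN nuclei, so the direction of these calls followed from the filter. The intronic region at +14.6 kb was listed in all PU1 libraries, with 80.9 and 29.3 tags in EKO and 51.4 and 494 in WT, and had 0 to 41.5 in NeuN nuclei and 0 in Olig2 nuclei.

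SALL1 occupied the Mef2 loci of WT microglia at 45 reproducible peaks, 24 at Mef2c, 19 at Mef2a and 2 at Mef2d. Of the Mef2 windows, 37 held such a peak (20.3%), against 13.7% of all windows. None held a SALL1 peak of EKO microglia, whose list had 7 peaks in all and touched 0.00826% of windows. In the wild-derived strains 17 Mef2 windows held a PWK peak and 6 a Spret peak, against 3.42% and 2.2% of all windows, from lists of 3627 and 2245 peaks in place of 15410. The best ranked SALL1 peak of the family was the Mef2c element at +68.2 kb, with an enrichment score of 231 and rank 238 of 15410 in WT, rank 136 of 3627 in PWK and rank 55 of 2245 in Spret. It lies between the middle and the internal Mef2c promoter, close to the internal one. It was followed by the Mef2a peak at +134.2 kb (chr7:67242142-67242355, rank 484), outside the windows and inside the 3′ region listed in PU1 and Olig2 nuclei, and by the Mef2c element at +105.4 kb (rank 746), which had no peak in PWK or Spret. The Mef2d peaks at −3.2 and −1.9 kb ranked 7676 and 6617.

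p300, the acetyltransferase that MEF2 proteins themselves recruit, had 21 peaks at the loci and touched 30 Mef2 windows, 17 at Mef2a, 7 at Mef2c and 6 at Mef2d, against 9.64% of all windows. SMAD4, the common mediator of TGF-beta signalling, had 8 peaks in mutant-labelled and 8 in WT microglia, and each list touched 15 Mef2 windows, against 3.03% and 4.89% of all windows. Of these windows 12 were at Mef2a in each list. The Mef2a element at −85.6 kb ranked 27 of 9177 p300 peaks, 36 of 2333 SMAD4 peaks of mutant-labelled and 24 of 4024 of WT microglia, and 2057 of the SALL1 peaks. The Mef2a element at −69.2 kb ranked 70 for p300, 138 for SMAD4 of mutant-labelled and 158 of WT microglia, and 1813 for SALL1. The Mef2c element at +68.2 kb ranked 93 for p300 and 295 and 419 for SMAD4 of mutant-labelled and WT microglia. The scores rank peaks within a list only, and each list pools its libraries, so no spread can be given. The WT lists of SALL1 and SMAD4 used here hold fewer peaks than the study describes, so a site without a listed peak is not shown to be unbound.

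SMAD4 peaks that the lists did not share were all at Mef2a. Those at −81.6 kb (score 163, rank 151 of 2333) and −66.1 kb (score 83, rank 675) were listed for mutant-labelled microglia, and those at −87.4 kb (score 39, rank 2242 of 4024) and −64.3 kb (score 44, rank 1943) for WT. The other 6 peaks of each list overlapped. Neither of the 2 sites of mutant-labelled microglia held a SALL1 peak of WT, although Spret had one at −81.6 kb with rank 1991 of 2245.

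H3K27ac of EKO and WT microglia was then compared at the 127 Mef2 windows with a mean above 16 normalized tags, 45 at Mef2a, 66 at Mef2c and 16 at Mef2d, among 55285 tested. After quantile normalization, 8 Mef2 windows were called lower in EKO and 2 higher, where 7.56% and 8.68% of all tested windows were. The lower ones were 5 at Mef2d, 2 at Mef2a and 1 at Mef2c, and the higher ones were both at Mef2a. The filter on the mean can admit a window through 1 genotype alone, as at −54.7 and −103.7 kb of Mef2a. At the same adjusted p with any fold, 16 were lower and 5 higher (12.1% of all windows in each direction). The median log2 difference was −0.15 over the Mef2 windows, −0.14 at Mef2a, −0.13 at Mef2c and −0.60 at Mef2d, against −0.03 over all windows. These counts rested on single libraries. None of the 10 calls was made on the values as deposited, where the median of all windows lay at 0.28, and 0, 3, 0 and 1 of them were made without EKO library 1, EKO library 2, WT library 1 or WT library 2. Without EKO library 1 or without WT library 1, limma called 0.0% of all windows, although 15105 and 12200 had an unadjusted p below 0.05. On the tags recovered from the values, edgeR called 9 Mef2 windows, 7 of them among the 10, and DESeq2 called 5, all among the 10.

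**Figure D4:**
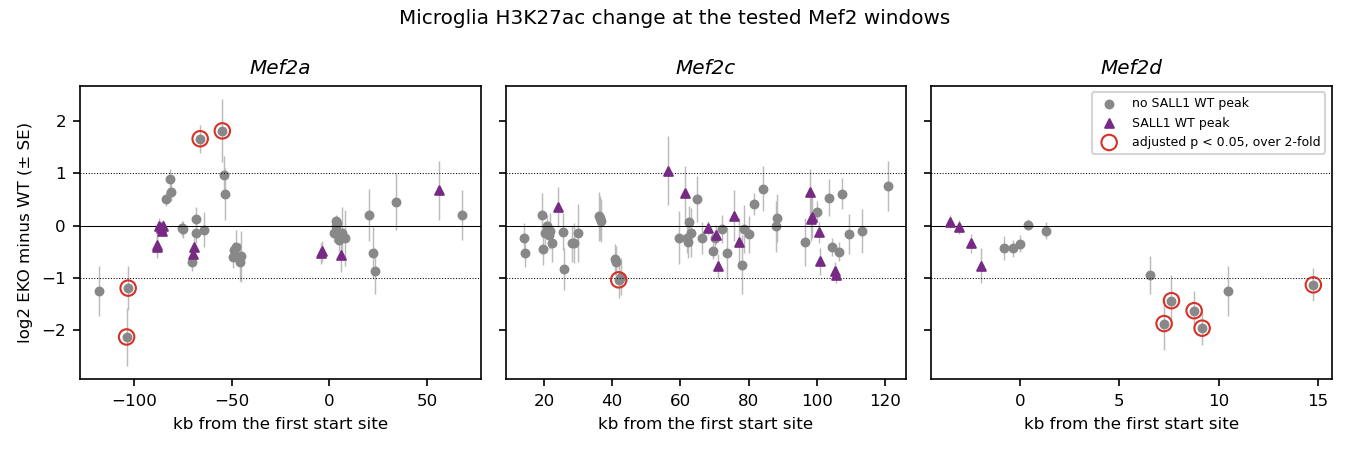
Log2 difference of EKO minus WT microglia H3K27ac after quantile normalization (points, with bars of 1 SE from limma) at the tested Mef2a, Mef2c and Mef2d windows, against distance from the first start site in kb. The Mef2c panel is limited to windows in the gene body and close to it. Triangles hold a SALL1 peak of WT microglia, rings mark the 10 called windows and dotted lines mark a 2-fold change. No triangle is ringed, and the 5 ringed Mef2d windows lie between +7.3 and +14.8 kb.

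No Mef2 promoter window was called. The window at the Mef2a promoter had 1346 and 465 tags in EKO and 767 and 452 in WT, so that the groups overlapped, and differed by 0.09 ± 0.11 (limma adjusted p = 0.59). The window with the highest WT level of Mef2a lay beside it and differed by −0.00 ± 0.10. The Mef2d promoter window, also the highest of its gene, had 883 and 285 tags in EKO and 501 and 334 in WT and differed by 0.02 ± 0.11 (limma adjusted p = 0.93). The window at the internal Mef2c promoter had 380 and 111 tags in EKO and 276 and 219 in WT, a difference of −0.50 ± 0.15 that passed the p threshold (limma adjusted p = 0.023) but not 2-fold. No window within 3 kb of a Mef2 start site was called, of 26 tested. The 4 Mef2b windows averaged 4.195 to 11.3 tags and were too low to test, with 7.03 and 2.24 tags in EKO and 4.52 and 2.99 in WT at the start site.

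Mef2d had the most called windows, 4 in its intron 1 and 1 in its intron 3, all lower in EKO. The largest difference was at chr3:88150604-88151604 (+9.2 kb), with 42.2 and 10.5 tags in EKO and 87.0 and 51.8 in WT, both EKO libraries below both WT libraries (−1.97 ± 0.32, limma adjusted p = 1.5e-04). The windows at +7.3, +7.6 and +8.8 kb differed by −1.88, −1.44 and −1.64. Those at +7.3 and +7.6 kb overlap, as do those at +8.8 and +9.2 kb, so the 4 calls of intron 1 lie in 2 stretches. Their sizes moved with single libraries. The differences at +7.3, +7.6 and +8.8 kb were −2.57, −2.27 and −2.24 without EKO library 1 and −1.32, −0.72 and −1.10 without EKO library 2, and none of the 3 was called once any 1 of the 4 libraries was left out. The window at +14.8 kb, with 62.2 and 14.2 tags in EKO and 67.3 and 42.8 in WT, differed by −1.14 (limma adjusted p = 0.012). In the 4 windows other than that at +9.2 kb, EKO library 1 lay inside the WT range as deposited or, at +7.6 kb, above it, and only EKO library 2 lay below. None of the 5 held a SALL1 peak. Each of the 4 windows of intron 1 overlapped listed regions of 2 PU1, 4 NeuN and 3 Olig2 libraries. Markers of astrocytes and oligodendrocytes were lower in EKO microglia as well, and the part of such cells here was not tested. In PU1 nuclei, whose region at +14.6 kb covers the last of these windows, the EKO minus WT difference was −1.69 ± 1.70 and was not called.

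The windows that differed at Mef2a were distal and intergenic. At −103.7 kb 9.03 and 9.71 tags in EKO stood against 34.5 and 26.9 in WT (−2.14 ± 0.55, limma adjusted p = 0.0073), and the overlapping window at −102.9 kb had 22.1 and 17.2 in EKO against 36.1 and 31.9 in WT (−1.20 ± 0.42, adjusted p = 0.042). The window at −54.7 kb had 59.2 and 11.95 tags in EKO against 4.93 and 2.99 in WT (1.82 ± 0.61, limma adjusted p = 0.034). Of its values only that of EKO library 1 exceeded the 16 tags that the mean had to pass, so it entered the test through that library. At −103.7 kb only the WT values did. The directions of both calls were thus tied to the filter. The window at −66.1 kb had 210 and 55.3 tags in EKO against 25.5 and 27.9 in WT (1.67 ± 0.27, limma adjusted p = 1.3e-04). In each of these 4 windows both EKO libraries lay on 1 side of both WT libraries, but the calls depended on single libraries. The differences at −103.7 and −102.9 kb were −1.35 and −0.60 without EKO library 1 and −3.08 and −1.91 without EKO library 2. The call at −66.1 kb held without EKO library 2 or WT library 2 (1.88 and 1.89, limma adjusted p = 0.044 and 0.042) and was lost without EKO library 1 or WT library 1 (1.49 and 1.41, adjusted p = 0.088 and 0.13). As deposited, both EKO libraries lay below both WT libraries in 4 of the tested Mef2 windows and above in 12, against 6.12% and 17.8% of all windows.

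The window at −66.1 kb covers the SMAD4 peak listed for mutant-labelled microglia. The windows of the other such peak, at −81.6 kb, were looked up after their values had been seen. The nearer one had 423 and 111 tags in EKO and 121 and 79.6 in WT, and its difference of 0.90 ± 0.18 passed the p threshold (limma adjusted p = 0.0010) but not 2-fold. The groups overlapped there. At the shared element at −85.6 kb the window had 1242 and 349 tags in EKO and 681 and 471 in WT, and differed by −0.10 ± 0.11 (limma adjusted p = 0.56). The strongest window at the shared element at −69.2 kb had 348 and 85.9 tags in EKO and 262 and 174 in WT, and its difference of −0.55 ± 0.17 passed the p threshold (limma adjusted p = 0.020) but not 2-fold. Across the 18 tested windows of the whole upstream domain the median difference was −0.06, with 1 window called higher and none lower.

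At Mef2c, the strongest window of WT microglia was the SALL1 element at +105.3 kb, with 422 and 105 tags in EKO and 447 and 232 in WT. Both EKO libraries lay below WT library 1 and EKO library 1 lay above WT library 2, and the difference of −0.86 ± 0.16 passed the p threshold (limma adjusted p = 4.8e-04) but not 2-fold. The called window, at +41.9 kb in the first intron, had 41.2 and 14.2 tags in EKO and 39.8 and 38.8 in WT (−1.04 ± 0.34, limma adjusted p = 0.030), and without 1 library of either group the adjusted p was 0.13 to 0.25. The window at the best ranked SALL1 peak, at +68.1 kb, had 570 and 163 tags in EKO and 333 and 213 in WT and differed by −0.05 ± 0.14 (limma adjusted p = 0.83). Of the 31 tested Mef2 windows with a SALL1 peak none was called in either direction by limma, edgeR or DESeq2, and 9 had an unadjusted limma p below 0.05, while of the 96 without one 8 were lower and 2 higher. Over all genes, 8.03% of the 14624 tested windows with a SALL1 peak were lower and 7.57% higher, and of the 40661 without one 7.39% were lower and 9.08% higher.

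**Figure D5:**
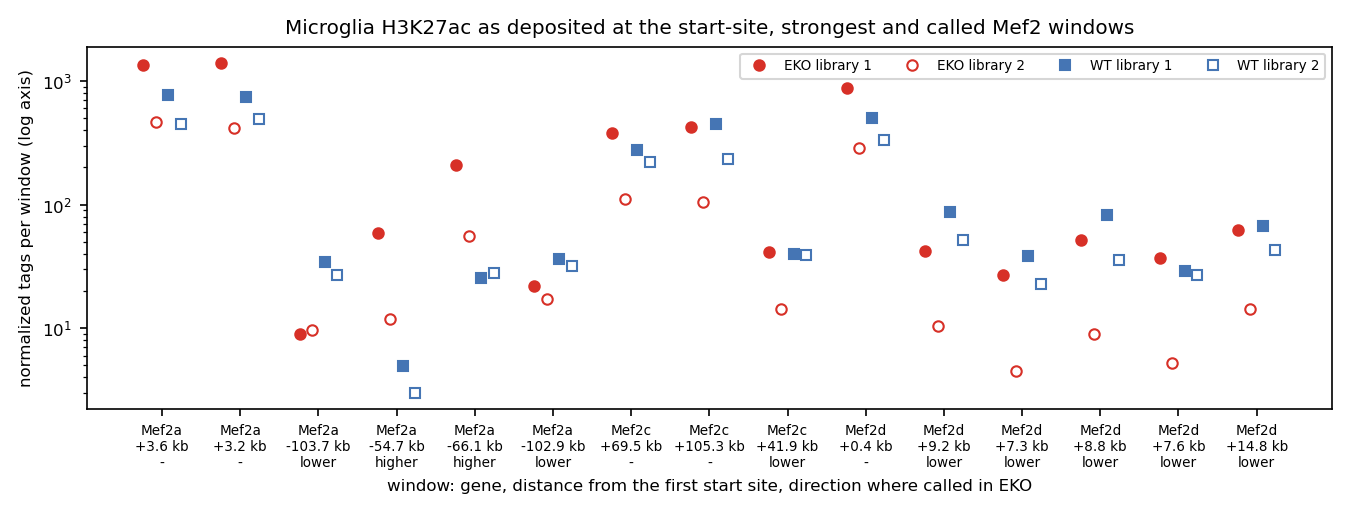
Normalized H3K27ac tags as deposited (log axis) in the 2 EKO (circles) and 2 WT (squares) microglia libraries at the start-site, strongest and called windows of Mef2a, Mef2c and Mef2d. Positions are in kb from the first start site, and the third line of each label gives the direction of a called window in EKO. Only the windows at −103.7, −102.9, −66.1 and −54.7 kb of Mef2a and +9.2 kb of Mef2d keep the EKO and WT symbols apart.

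The genes around MEF2 in its pathway were read from 26 regulators, among them class IIa deacetylases, calcineurin subunits and MAP kinases, and 8 target genes. Of the regulators 3 were called higher and 10 lower in PU1 than in NeuN nuclei, where 12.3% and 44.8% of all genes were, and the median difference was −1.36 against −2.06 over all genes. These shares lay near those of all genes. The higher ones were the kinase Camk1 and the calcineurin-dependent factors Nfatc1 and Nfatc2. Nfatc2 had 3202 and 2436 tags in EKO and 573 and 3713 in WT PU1 nuclei, against 120.0 to 188.4 in NeuN nuclei (3.71 ± 0.60, limma adjusted p = 0.0010). The lower ones included Hdac4, Ppp3ca, which encodes a catalytic calcineurin subunit, and Camk4, which was listed in no PU1 library and had 1092 to 1873 tags in NeuN nuclei. Hdac9, another class IIa deacetylase, differed by 0.21 ± 0.64 between PU1 and NeuN nuclei (limma adjusted p = 0.81) and was called higher in both than in Olig2 nuclei (limma adjusted p = 0.020 and 0.027).

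Of the 8 targets, 4 were called lower (Arc, Bdnf, Homer1 and Nr4a1) and none higher in PU1 than in NeuN nuclei, also near the 44.8% of all genes called lower. Bdnf, a neurotrophin gene, had no tags in any PU1 library, 350.3 to 541 in NeuN nuclei and none in any Olig2 library. Between genotypes none of the 26 regulators or 8 targets was called in PU1 or NeuN nuclei. Of all genes 2.58% were higher and 0.352% lower in PU1 nuclei, and 0.841% and 0.537% in NeuN nuclei. In Olig2 nuclei Camk4 alone was called, higher in EKO, where 0.277% of all genes were higher and 0.338% lower. It had 15.0 and 11.5 tags in EKO, near the lowest listed values of 8.77 and 9.81, and was unlisted, so 0, in WT. At the microglia windows, 13 of 201 tested regulator windows were higher and 10 lower in EKO, and 8 of 82 target windows were higher and 2 lower, where 8.68% of all windows were higher and 7.56% lower.

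Over the 12 nuclei libraries, the genes on other chromosomes whose log2 levels followed each Mef2 gene most closely were taken as a description. For Mef2c they were Spata32, Cebpb and Gm32695 (Pearson r = 0.997 each), for Mef2a Aftph, Atg14 and Etv3 (0.985 to 0.990), for Mef2d Gm51497, Acvr2a and Lims1 (0.985 to 0.990) and for Mef2b Bpnt2, Lamtor3 and Zfp457 (0.988 to 0.995). The 12 points fall into 3 kinds of nuclei and share the weak PU1 library. Between 27220 and 28008 genes were compared.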

How the data were processed

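H3K27ac, SALL1, SMAD4 and p300 ChIP-seq files of 31 samples were used, and 30 inputs were not used here. Per the submitters' processing notes, reads were aligned to mm10 with Bowtie2 and processed with HOMER and DESeq2. The microglia table holds a signal that the authors made by counting H3K27ac tags in windows of 1000 bp around merged ATAC peaks of WT and EKO, normalized to 10000000 tags. The values were whole multiples of a smallest unit, taken as 1 tag, in 100% of cases (tolerance 0.05 of a tag), so tags were recovered for count tests. Whether that unit is a single tag in EKO library 1 was not tested. The nuclei lists give, as deposited, a signal of normalized tags per region and its fold enrichment ratio over input, and they list called regions only. The factor lists hold peaks that the authors kept by reproducibility between libraries, 1 list per group, with a deposited enrichment score used here to rank peaks.

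Windows with a mean above 16 tags were quantile-normalized and compared as log2(value + 1) with limma 3.58.1 in R 4.3.3. Nuclei regions of the 12 lists were merged and kept where listed in at least 2. A region listed by 1 kind of nuclei or 1 genotype alone passed too, which fixed the direction of its difference. The kept regions were fitted together over all 6 groups with limma on log2(tags + 1). The added 1 understates changes between low listed values. Setting an unlisted region to 0 can overstate differences, since the lowest listed values were 4.1 to 9.81 tags. These zeros also have no spread, so p-values can be too small where many libraries list nothing. Genes were summed with 5 kb on either side. Calls needed a Benjamini-Hochberg adjusted p below 0.05 over all features and a fold above 2. Alternatives were other normalizations, pseudocounts and filters, edgeR 4.0.16, DESeq2 1.42.0, a replicate block and leaving out each library, and the 1 kb bins and a crossed block were added after the data had been seen. The steps were tested on simulated data. Named windows were those nearest a start site, highest in WT or called, and named regions those most different between nuclei. The windows at factor peaks (Mef2a −69.2, −81.6 and −85.6 kb, Mef2c +68.1 kb) and the broad regions were named after their values were seen. The members and lists were chosen with earlier results of these data known. Counting error is covered by depth only, since tags are PCR products without molecular identifiers.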

Additional observations from a re-analysis of the deposited data

How the results depend on the processing

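Among Mef2 gene levels, named windows and named PU1 minus NeuN regions, no value called under the main settings changed sign under an alternative. Other regions, bins, regulators and targets were not compared for sign. Uncalled values did change sign, such as EKO minus WT of Mef2a, Mef2c and Mef2d in PU1 nuclei without PU1 WT library 1. In place of 10 Mef2 windows, 0 were called on values as deposited, 3 with no filter on low windows (2 of them among the 10), 5 with DESeq2 (all among the 10), and 0 to 4 when 1 library was left out. In 1 kb bins the 21, 16, 27, 1 and 0 called Mef2 regions (PU1 minus NeuN, PU1 minus Olig2, NeuN minus Olig2, EKO minus WT in PU1 and in NeuN nuclei) became 107, 101, 119, 5 and 7 bins. EKO minus WT in NeuN nuclei gave 1 region with libraries scaled to equal listed tags and 1 with a pseudocount of 8. Leaving out 1 library gave 1 to 15 regions for EKO minus WT in PU1 nuclei (15 higher and 0 lower without PU1 WT library 2, where 15.8% and 0.258% of all regions were, and 2 higher and 5 lower without PU1 WT library 1, where 3.68% and 3.07% were), 0 to 3 in those of NeuN and 0 to 1 in those of Olig2. It gave 16 to 27, 11 to 22 and 22 to 30 regions between kinds of nuclei in the order above. For genes, PU1 minus NeuN (1 call) became 2 when scaled and 0 without flanks, PU1 minus Olig2 (2 calls) became 4 when scaled, 1 with a pseudocount of 8 and 1 without flanks, and NeuN minus Olig2 (2 calls) became 1 without flanks. Leaving out 1 library gave 1 to 2, 2 to 4 and 1 to 2 genes, and 0 to 3 for EKO minus WT in PU1 nuclei. The 17 Mef2 windows with a PWK peak became 11 where most of the peak had to lie inside and 5 with only peaks scoring above the list's median, and the 6 with a Spret peak became 3 with such peaks. The cause was not tested.

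Same-numbered libraries deviated with r = 0.036 in microglia and −0.174 to 0.090 in nuclei, so the numbers were not taken as pairs. With the replicate block, 11 windows (the 10 and 1 other), 21, 14 and 25 regions between kinds of nuclei, 1 region in PU1 nuclei, and 1, 2 and 2 genes were called. With the PU1 WT numbers crossed, 22, 16 and 27 regions and 1, 2 and 2 genes were called. The 2 libraries per genotype, the weak PU1 WT library and the absence of unlisted tags limit all of these counts.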

Other observations

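The strongest acetylation near Mef2c in neurons lay outside the regions counted above. Past the 3′ end of the gene, over the long noncoding RNA gene C130071C03Rik, NeuN nuclei listed a domain with 3698 and 3933 tags in EKO and 4193 and 4064 in WT. It ranked 3 of 74196 and 5 of 64901 regions in EKO and 1 of 64931 and 5 of 68560 in WT NeuN nuclei. Olig2 nuclei listed regions there with 1295 and 1310.1 tags in EKO and 1172 and 985 in WT. Only the strongest region of each library was looked up in this stretch. In PU1 WT library 2 it lay inside the domain, with 11.7 tags. In PU1 WT library 1 it lay just beyond, with 10.7 tags, and the PU1 EKO libraries listed none. The domain was looked up after its values had been seen and was not tested.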
